A study of Mus musculus with 8 samples.

Results

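The genes described here are 40 markers of the liver's blood vessel lining, chosen by name from 19938 measured genes. The rule took array probes with a single gene symbol on the list and, where a gene had several, the one whose mean over the 8 arrays was highest. All 40 genes were measured. They were divided by role into 11 markers of sinusoidal endothelium, 3 genes of Wnt ligands and R-spondin, 11 genes shared by most vessels, 7 markers of continuous vessels and 7 genes of sprouting, arterial and venous endothelium. The remaining gene, Bmp2k, encodes a kinase whose part in endothelium is not assumed here.

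The samples came from 4 male C57BL/6J mice, M24, M48, M50 and M60. Each had received an AAV vector (adeno-associated virus) at 2 to 3 months of age and was necropsied 18 months later on a normal diet. From each mouse a tumor labelled as hepatocellular carcinoma and the adjacent liver labelled normal were dissected and frozen, which gave 4 tumor and 4 adjacent samples with 1 array each. The adjacent liver carried the same vector history as the tumor, and no liver of an uninjected mouse was analysed here. The vector's contents are not stated in the labels.

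Liver sinusoids are lined by a leaky endothelium with open pores and little basement membrane. Its cells clear waste from the blood through scavenger receptors, and around the central vein they release Wnt ligands and R-spondin that maintain the zones of the lobule. Other vessels have a closed, continuous lining on a basement membrane, and in liver disease and in liver cancer the sinusoidal lining is known to take on features of that continuous type, a change called capillarization.

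Values are log2 levels as deposited, and a difference is tumor minus adjacent within a mouse, averaged over n = 4 mice. The words rose and fell are kept for genes whose p-value in limma, a linear model fitted over all genes with the mouse as a block, was under 0.05 after Benjamini-Hochberg adjustment over all 11963 tested genes. Levels of different genes come from different probes and were not compared. The labels do not give a detection limit for the array. Genes with a mean level below 4.60, the lowest 40%, were left untested, and a level near or below that value cannot be told from background here. The 8 arrays had nearly the same distribution, with medians from 4.89 to 5.01, and the arrays of a group correlated at 0.962 to 0.992 over tested genes in adjacent liver and 0.973 to 0.983 in tumors. In adjacent liver of M48 the level was the lowest of the 4 for 14 of the 40 genes, and in tumor of M50 it was the highest for 24.

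The endothelial genes were mostly higher in the tumors. Of 38 tested genes 21 rose, 1 fell and 16 did not pass. Among the rises, Angpt2 was tested only because of its tumor levels. Of all tested genes 31.9% passed, 16.3% as rises and 15.7% as falls. In 20 of the 38 every tumor lay above every adjacent sample, as it did for 14.9% of all tested genes, and in 1 every tumor lay below, against 15.6%. The median difference of the 40 genes was 0.39, with M24 at 0.20, M48 at 0.34, M50 at 0.49 and M60 at 0.39, and over all tested genes the median was 0.0008. All 22 genes that passed had the same sign in 4 of 4 mice, and 6 genes differed by at least 1. These were Esm1, Flt4, Cd34, Lyve1, Emcn and Pecam1, all higher in tumors. In whole tissue, more endothelial cells and more RNA of these genes per cell cannot be told apart. Fits that left out 1 mouse at a time called between 11 genes (without M50) and 16 (without M48) higher, with 15 both without M24 and without M60. The 1 fall, that of Rspo3, was lost without M24, without M48 and without M50, while without M48 Wnt2 was called lower.

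**Figure D1:**
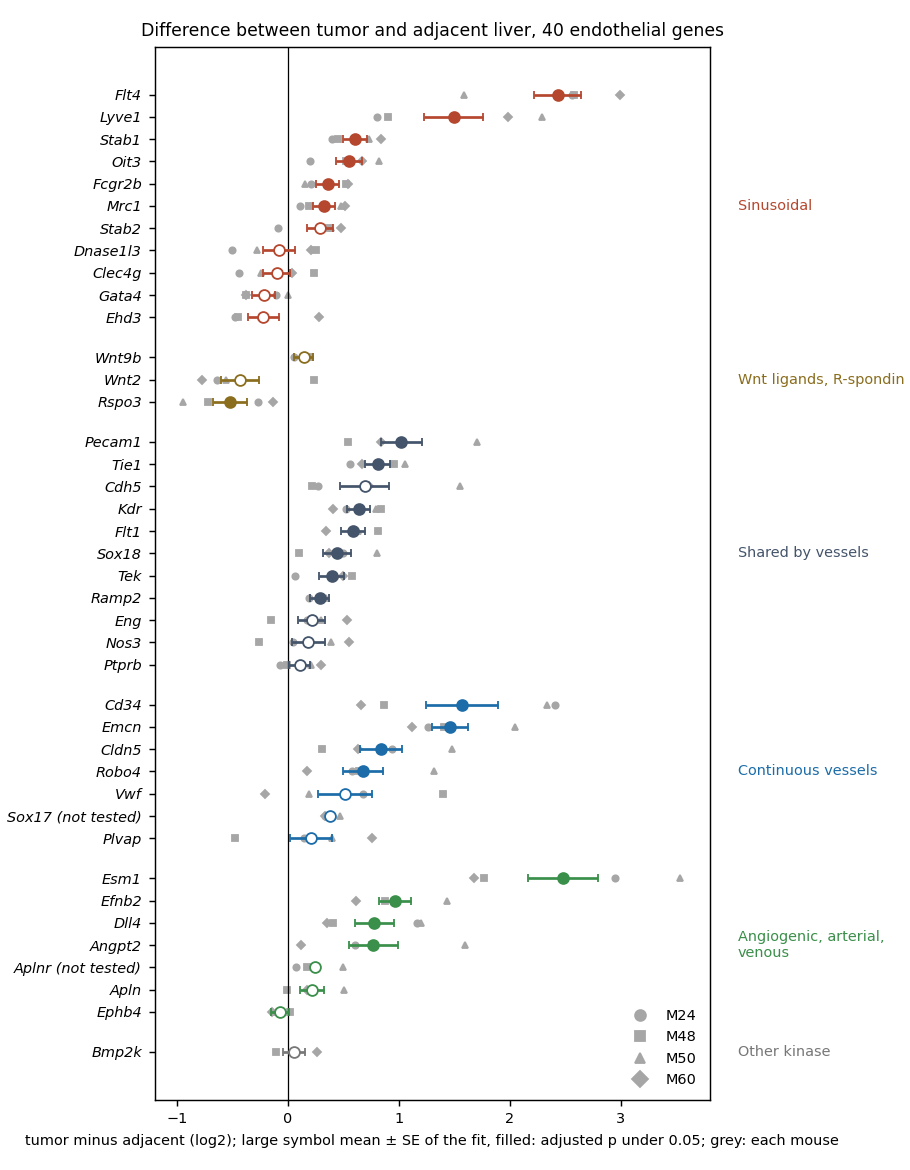
Difference between tumor and adjacent liver in log2 units (x axis) for each of the 40 genes (y axis), ordered by role and then by size. Large symbols are means over 4 mice with the standard error of the limma fit, filled where the adjusted p was under 0.05, and grey symbols are the single mice. Esm1 at 2.48 and Flt4 at 2.43 lie farthest to the right, and Rspo3 at -0.52 is the only filled symbol below 0.

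Promoters of the 4 genes with the largest differences among those that passed and had an entry in the RefSeq promoter table (build GRCm38.p6) are shown because these genes moved in the same direction. Lyve1 has no entry. Each sequence is the 250 bases before the annotated start, 5′ to 3′. Capitals mark AGGAAG or its reverse complement, 1 form of the site bound by ETS factors, a family that directs endothelial gene expression.
Esm1 promoter, chr13:113209409-113209658, plus strand: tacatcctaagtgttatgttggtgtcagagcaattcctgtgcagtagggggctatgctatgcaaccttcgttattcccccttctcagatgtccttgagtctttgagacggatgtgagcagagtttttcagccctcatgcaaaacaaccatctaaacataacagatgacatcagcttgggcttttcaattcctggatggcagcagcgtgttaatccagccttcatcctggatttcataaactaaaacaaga
Flt4 promoter, chr11:49609429-49609678, plus strand: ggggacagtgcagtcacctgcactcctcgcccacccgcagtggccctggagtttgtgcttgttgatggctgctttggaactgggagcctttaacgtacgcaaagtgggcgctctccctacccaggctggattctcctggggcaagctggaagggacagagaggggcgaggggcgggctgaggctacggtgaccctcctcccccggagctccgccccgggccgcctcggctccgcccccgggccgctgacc
Cd34 promoter, chr1:194938571-194938820, plus strand: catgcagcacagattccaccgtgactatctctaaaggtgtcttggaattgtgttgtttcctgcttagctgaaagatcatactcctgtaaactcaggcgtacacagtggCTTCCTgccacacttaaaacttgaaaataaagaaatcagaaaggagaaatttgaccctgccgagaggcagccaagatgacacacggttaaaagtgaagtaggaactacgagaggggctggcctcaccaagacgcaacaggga
Emcn promoter, chr3:137340828-137341077, plus strand: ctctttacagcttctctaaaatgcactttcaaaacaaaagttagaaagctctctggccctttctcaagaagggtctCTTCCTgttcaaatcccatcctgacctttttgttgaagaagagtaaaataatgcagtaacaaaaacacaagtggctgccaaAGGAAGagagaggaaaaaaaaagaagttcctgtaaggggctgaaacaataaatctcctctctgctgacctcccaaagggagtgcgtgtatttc
The letters occurred once in the Cd34 promoter, 142 bases before the start, and at 174 and 93 bases before the start of Emcn. Neither Esm1 nor Flt4 held AGGAAG on either strand in this window. The shorter ETS core GGAA was not counted, and on 1 strand or the other it occurs in both. Entries were found for 24 of the 40 genes, of which 11 held AGGAAG on either strand, among them 7 of the 15 that rose. Of 27025 promoters of the same length, 29.2% held it. The SOX letters AACAAT were present in 2 of the 24, Emcn and Tek, and in 9.65% of all promoters. The GATA letters AGATAA were in 0 of the 24 and in 10.3%. None of the 3 motifs contains another, and a match is a description of letters, not a bound site.

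Among sinusoidal markers, 6 of 11 rose and 0 fell, where 16.3% of all tested genes rose and 15.7% fell. In a group this small, 0 falls is not far from the latter share. The 6 rises were of very different size. Flt4 encodes the receptor for VEGF-C and VEGF-D (VEGFR3), found on sinusoidal and lymphatic endothelium. Its level was 6.96, 6.90, 6.86 and 6.71 in adjacent liver of M24, M48, M50 and M60 and 9.52, 9.48, 8.45 and 9.70 in the tumors of the same mice. All tumors lay above all adjacent samples, with M50 the lowest tumor. The difference was 2.43 (SE 0.213, limma adjusted p = 0.000676), a 5.38-fold higher level. Lyve1, a hyaluronan receptor of sinusoidal and lymphatic endothelium, was at 6.85, 6.52, 6.47 and 5.90 in adjacent liver and 7.65, 7.42, 8.76 and 7.88 in tumors. Here the M50 tumor was the highest and the groups again did not overlap. Lyve1 rose by 1.49 (SE 0.265, limma adjusted p = 0.00727), from 0.80 in M24 to 2.29 in M50.

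The scavenger receptor Stab1 was at 7.05, 7.13, 7.24 and 6.93 in adjacent liver and 7.44, 7.58, 7.97 and 7.77 in tumors. The groups did not overlap, and Stab1 rose by 0.60 (SE 0.107, limma adjusted p = 0.00714). Its relative Stab2, the main hyaluronan scavenger of the sinusoid, was at 8.07, 7.78, 7.80 and 7.72 in adjacent liver and 7.99, 8.15, 8.19 and 8.20 in tumors. Stab2 was higher in 3 of 4 mice and slightly lower in M24, and its difference of 0.29 (95% interval 0.02 to 0.56) did not pass at a limma adjusted p = 0.102. Without M24 it was 0.41 and passed (adjusted p = 0.0372, with a range of 0.0372 to 0.311 over all settings). Oit3, a secreted protein enriched in sinusoidal endothelium, rose by 0.55 (SE 0.118, adjusted p = 0.0138). It was higher in 4 of 4 mice, with differences from 0.19 in M24 to 0.82 in M50, but its levels overlapped: adjacent liver ranged from 7.17 to 7.74 and tumors from 7.69 to 8.50. The inhibitory Fc receptor Fcgr2b, which clears immune complexes in the sinusoid, rose by 0.36, and the mannose receptor Mrc1 rose by 0.32. Both calls were near the threshold, with adjusted p-values of 0.0387 and 0.0494.

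The other 4 sinusoidal markers did not pass. Their means all lay below 0, from -0.22 to -0.08, and each 95% interval included 0. Clec4g, a lectin of sinusoidal endothelium, was at 9.90, 9.26, 10.11 and 9.79 in adjacent liver and 9.46, 9.50, 9.87 and 9.82 in tumors. It was lower in M24 and M50 and higher in M48 and M60, with a mean of -0.10 (95% interval -0.40 to 0.19). Dnase1l3, a secreted nuclease, was at 8.31, 7.32, 8.20 and 8.02 in adjacent liver and 7.80, 7.58, 7.92 and 8.22 in tumors. It split by mouse in the same way, with a mean of -0.08 (95% interval -0.43 to 0.27). Gata4, the transcription factor that specifies sinusoidal over continuous endothelium, was at 6.88, 6.82, 7.14 and 7.11 in adjacent liver and 6.77, 6.44, 7.14 and 6.73 in tumors. Gata4 was lower in 4 of 4 mice, though by only 0.0038 in M50, and its mean of -0.22 had a 95% interval of -0.46 to 0.03. The membrane trafficking protein Ehd3 was at -0.22 (95% interval -0.55 to 0.11), lower in 3 mice and higher by 0.28 in M60. For these 4 genes the groups overlapped.

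Mrc1, Fcgr2b, Stab1 and Lyve1 can also be expressed by macrophages. Without those 4 genes the sinusoidal markers had 2 rises among 7, Flt4 and Oit3, and a median of -0.08. With them the median was 0.32. Of 15 macrophage markers, all of them tested, 2 rose and 4 fell, where 16.3% of all tested genes rose and 15.7% fell. Their median difference was 0.30 (from -0.02 in M24 to 0.63 in M50). Their summed level, taken on the linear scale and then as log2, was 11.45 to 13.42 in adjacent liver and 12.37 to 13.53 in tumors. Mrc1 was highest in M48 in both tissues, at 8.63 and 8.82, and the M48 tumor had the highest level of 14 of the 15 macrophage markers. Stab1 and Lyve1 were instead highest in the M50 tumor, at 7.97 and 8.76, and Fcgr2b in the M60 tumor, at 8.11. In adjacent liver Fcgr2b was lowest in M48, at 7.49. The 2 rises were the endotoxin co-receptor Cd14, by 3.74 and with every tumor higher, and Cd68, by 0.98. The 4 falls were the resident macrophage markers Cd163 (-1.56), Marco (-1.29), Timd4 (-0.94) and Clec4f (-0.65). The other 9 did not pass. Among them were the resident markers Cd5l (0.15, with -0.57 in M24) and Vsig4 (-0.20, with 0.33 in M60). With no replicate block 1 macrophage marker rose and 1 fell, and Marco and Timd4 did not pass (adjusted p = 0.151 and 0.262). Without M24 the count of rises was 5, and without M50 or M60 it was 1. Cd163 lay below the filter value in the tumors of M50 and M60 (3.90 and 3.82). The part of macrophages in the rises of Mrc1, Fcgr2b, Stab1 and Lyve1 was not tested.

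Lymphatic vessels share Flt4 and Lyve1 with sinusoids. The lymphatic regulator Prox1, which hepatocytes also express, was lower in every tumor and fell by 0.41 (adjusted p = 0.0209, lost without M24 at 0.083 and without M60 at 0.097). Podoplanin (Pdpn) stood at 0.19 with opposite signs in different mice. Mmrn1, a defining gene of lymphatic endothelium, was at 2.81 ± 0.182 (SD, n = 4) in adjacent liver and 2.84 ± 0.0626 in tumors, far below the filter value in both. Ccl21a had no probe with a single gene symbol. The summed level of the 3 measured markers was 9.05 to 9.49 in adjacent liver and 8.72 to 9.07 in tumors. That sum is mostly Prox1, at 8.90 to 9.38 in adjacent liver and 8.58 to 8.89 in tumors. It therefore does not measure lymphatic content apart from hepatocytes.

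In the sinusoidal group the calls of Fcgr2b and Mrc1 were lost when any 1 of the 4 mice was left out, with adjusted p-values from 0.0521 to 0.157 for Fcgr2b and from 0.0605 to 0.192 for Mrc1. Without M50 the call of Oit3 was lost at 0.054 and without M60 at 0.0609, and with no replicate block it was 0.0548 (range over all settings 0.0111 to 0.0609).

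**Figure D2:**
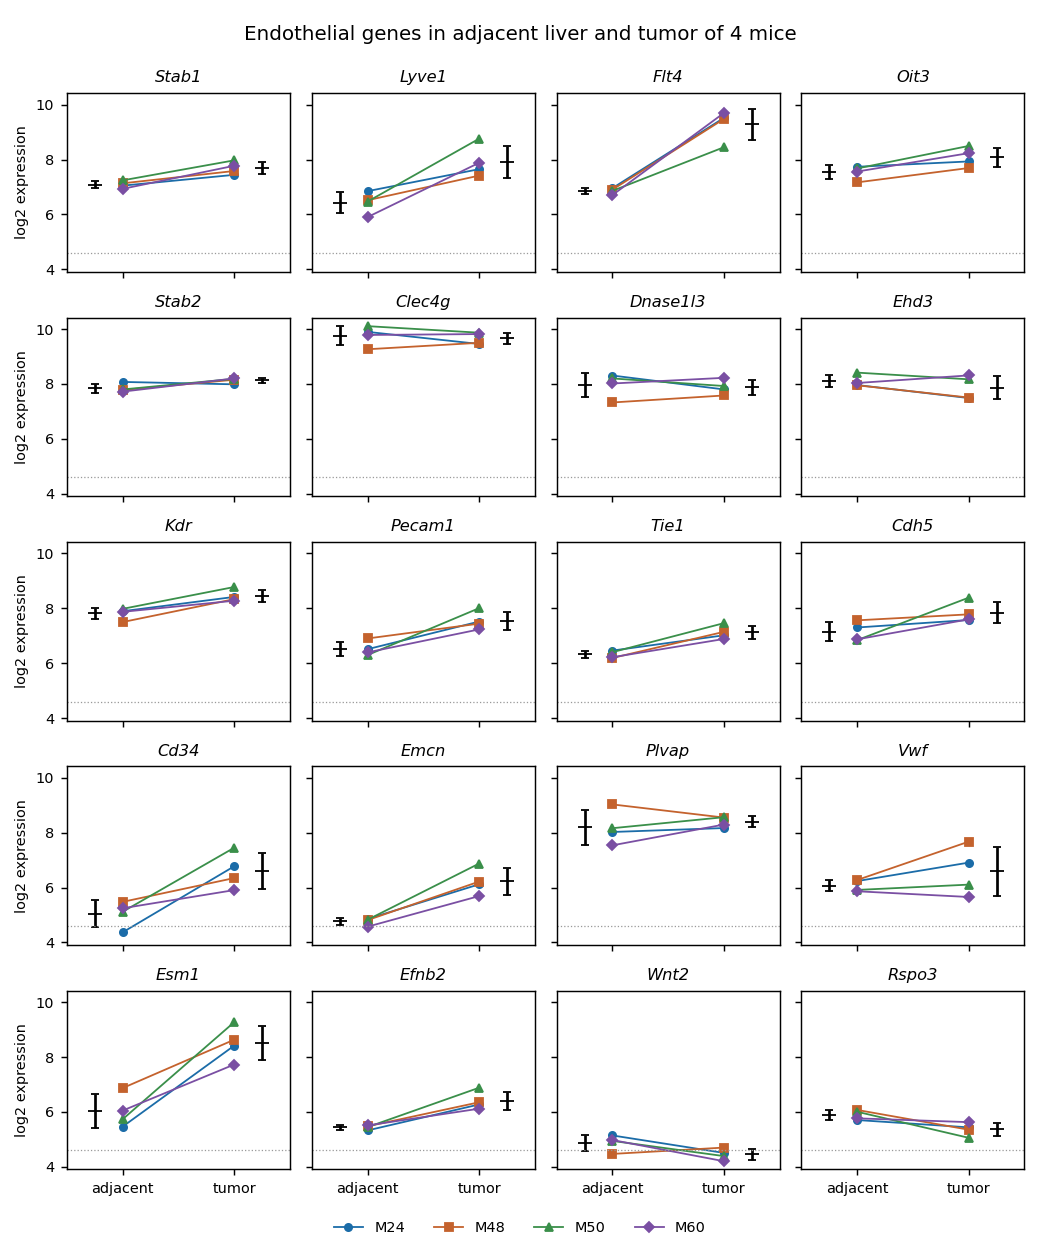
Log2 expression (y axis) in adjacent liver and tumor (x axis) for 20 of the genes, with 1 line for each mouse, and black bars for the mean ± SD of the 4 samples beside each tissue. The dotted line is the filter value of 4.60. Lines for Flt4, Lyve1, Emcn and Esm1 rise in every mouse, those of Clec4g and Dnase1l3 cross, and Rspo3 falls in every mouse.

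Of the 3 genes of Wnt ligands and R-spondin, all tested, 1 fell and the other 2 did not pass. Over all tested genes 15.7% fell and 31.9% passed in either direction, and 3 genes are too few to differ from that. Rspo3, which amplifies Wnt signals at the central vein, was at 5.70, 6.07, 6.00 and 5.77 in adjacent liver and 5.44, 5.35, 5.06 and 5.63 in tumors. Every tumor lay below every adjacent sample. Rspo3 fell by 0.52 (SE 0.153, limma adjusted p = 0.0421), by 0.95 in M50 and only 0.14 in M60. The call was lost without M24 (0.0688), without M48 (0.117) and without M50 (0.137), and over all settings the adjusted p ran from 0.0216 to 0.137. Wnt2, a ligand made by sinusoidal endothelium, was at 5.14, 4.47, 4.94 and 4.98 in adjacent liver and 4.51, 4.70, 4.39 and 4.20 in tumors. It was lower in the tumors of M24, M50 and M60 and higher in that of M48, whose adjacent liver had the lowest of the adjacent levels. The mean of -0.43 (95% interval -0.85 to -0.02) did not pass at an adjusted p = 0.104, while without M48 it was -0.65 and passed at 0.00948 (range over all settings 0.00948 to 0.299). Tumor levels of Wnt2 lay around the filter value, so the size of this difference is uncertain. Wnt9b, the ligand of central vein endothelium, stood at 4.67 ± 0.0272 (SD) in adjacent liver and 4.81 ± 0.0432 in tumors, close to the filter value in both. Every tumor lay above every adjacent sample, but its difference of 0.14 (95% interval -0.06 to 0.35) did not pass.

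Among genes shared by most vessels, 7 of 11 rose and 0 fell, beside 16.3% and 15.7% of all tested genes. Their median difference was 0.44. Pecam1, the adhesion protein CD31 used to stain vessels, was at 6.51, 6.90, 6.30 and 6.39 in adjacent liver and 7.52, 7.44, 8.0 and 7.23 in tumors. The groups did not overlap, and Pecam1 rose by 1.02 (SE 0.185, limma adjusted p = 0.0077), by 0.54 in M48 and 1.71 in M50. Tie1, an orphan receptor of the angiopoietin system, was at 6.46, 6.19, 6.40 and 6.22 in adjacent liver and 7.02, 7.14, 7.46 and 6.88 in tumors. It rose by 0.81 (SE 0.114, limma adjusted p = 0.00324) without overlap. Its partner Tek, the angiopoietin receptor TIE2, rose by 0.39 (SE 0.112, adjusted p = 0.0376), and its difference in M24 was only 0.07.

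Both further VEGF receptors rose. Kdr (VEGFR2), the main signalling receptor of angiogenesis, was at 7.89, 7.50, 7.98 and 7.87 in adjacent liver and 8.41, 8.33, 8.78 and 8.28 in tumors. Kdr rose by 0.64 (SE 0.103, limma adjusted p = 0.00513), and no tumor reached down to an adjacent level. Flt1 (VEGFR1), a high affinity receptor that also acts as a trap for VEGF, rose by 0.59 (SE 0.105, limma adjusted p = 0.00755), from 6.12 to 6.58 in adjacent liver to 6.61 to 7.15 in tumors. The transcription factor Sox18 rose by 0.44 and Ramp2, a receptor subunit for adrenomedullin, by 0.29 (limma adjusted p = 0.0393 and 0.042). Their groups did not overlap, but the gaps between them were only 0.0088 and 0.014.

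The other 4 genes of this group did not pass, and 1 of them came close. Cdh5, the VE-cadherin of endothelial junctions, was at 7.30, 7.56, 6.84 and 6.87 in adjacent liver and 7.57, 7.78, 8.39 and 7.60 in tumors. All tumors lay above all adjacent samples, but M50 differed by 1.55 and M24 and M48 by only 0.27 and 0.22. The mean of 0.69 (95% interval 0.16 to 1.22) had an adjusted p = 0.0541, which was 0.0434 without M48 and 0.0429 with no replicate block (range over all settings 0.0429 to 0.14). Endoglin (Eng), a co-receptor for BMP9, was at 0.21 (95% interval -0.08 to 0.50) and the endothelial phosphatase Ptprb at 0.11 (95% interval -0.12 to 0.33). Nitric oxide synthase (Nos3) was at 0.18 (95% interval -0.17 to 0.54). In these 3 genes the groups overlapped. The call of Ramp2 was lost without any 1 of the mice (0.0815 to 0.146), that of Tek without M48 (0.106), M50 (0.114) and M60 (0.136), and that of Sox18 without M24 (0.121), M50 (0.126) and M60 (0.0977).

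In the markers of continuous vessels 4 of 6 tested genes rose and 0 fell, beside 16.3% and 15.7% of all tested genes. The median of all 7 was 0.68. Emcn, the sialomucin endomucin of capillaries and veins, was at 4.85, 4.81, 4.83 and 4.57 in adjacent liver and 6.12, 6.22, 6.87 and 5.69 in tumors. The groups lay far apart relative to their spread, and Emcn rose by 1.46 (SE 0.162, limma adjusted p = 0.00146), 2.75-fold. Cd34, which marks capillaries but is scarce on healthy sinusoids, was at 4.37, 5.48, 5.12 and 5.25 in adjacent liver and 6.77, 6.35, 7.45 and 5.91 in tumors. It rose by 1.57 (SE 0.324, limma adjusted p = 0.0123). The differences fell into a pair at 2.40 and 2.33 (M24 and M50) and a pair at 0.87 and 0.66 (M48 and M60). Adjacent levels of both genes were close to the filter value, which leaves the size of each rise uncertain.

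Cldn5, the claudin of tight endothelial junctions, was at 5.29, 5.52, 5.60 and 5.56 in adjacent liver and 6.23, 5.82, 7.08 and 6.19 in tumors. It rose by 0.84 (SE 0.188, limma adjusted p = 0.0164) without overlap. Robo4, a receptor that stabilises vessels, was at 5.71, 5.63, 5.97 and 6.10 in adjacent liver and 6.28, 6.28, 7.29 and 6.27 in tumors. It rose by 0.68 (SE 0.18, limma adjusted p = 0.0298), and the M50 tumor stood apart from the other tumors, which lay between 6.27 and 6.28. The call of Robo4 was lost without M24 (0.081), M48 (0.0652) and M50 (0.0656) and with no replicate block (0.0579), that of Cldn5 without M24 (0.0665) and that of Cd34 without M50 (0.0506).

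The other continuous markers differed between mice. The clotting protein gene Vwf, which marks larger vessels, was at 6.24, 6.28, 5.91 and 5.86 in adjacent liver and 6.91, 7.67, 6.11 and 5.66 in tumors. It was higher by 1.40 in M48 and by 0.67 in M24, higher by only 0.19 in M50 and lower in M60. The mean of 0.51 (95% interval -0.08 to 1.10) did not pass at an adjusted p = 0.162. Plvap, the diaphragm protein of capillary pores, was at 8.03, 9.03, 8.16 and 7.54 in adjacent liver and 8.17, 8.55, 8.56 and 8.29 in tumors, and the adjacent sample of M48 was higher than any tumor. Its difference of 0.21 (95% interval -0.25 to 0.66) did not pass. As a protein of pores Plvap does not mark a closed lining, though it is counted among the continuous markers here. Sox17, a factor of arterial identity, had a mean below the filter value and was not tested in the fit described. Its level was 4.12 to 4.44 in adjacent liver and 4.46 to 4.91 in tumors, with a difference of 0.38, and with no filter on low values it passed at an adjusted p = 0.0189.

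In the group of sprouting, arterial and venous genes 4 of 6 tested genes rose and 0 fell. Over all tested genes 16.3% rose and 15.7% fell. The median of all 7 genes of the group was 0.77. Esm1, the proteoglycan endocan of the tip cells that lead new sprouts, was at 5.46, 6.87, 5.74 and 6.05 in adjacent liver and 8.41, 8.63, 9.27 and 7.73 in tumors. Even the highest adjacent sample, that of M48, lay below the lowest tumor. Esm1 rose by 2.48 (SE 0.316, limma adjusted p = 0.00235), 5.58-fold, and by 1.68 to 3.53 in the single mice. The arterial ligand Efnb2 was at 5.32, 5.47, 5.44 and 5.51 in adjacent liver and 6.27, 6.35, 6.88 and 6.12 in tumors. It rose by 0.97 (SE 0.143, limma adjusted p = 0.00382). Its venous receptor Ephb4 was at 7.12 to 7.45 in adjacent liver and 7.06 to 7.47 in tumors, with a difference of -0.07 (95% interval -0.27 to 0.12).

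The Notch ligand Dll4, which restrains sprouting and marks arteries, was at 5.48, 5.85, 5.61 and 5.82 in adjacent liver and 6.65, 6.25, 6.80 and 6.17 in tumors. It rose by 0.78 (SE 0.177, limma adjusted p = 0.0173), by 1.17 and 1.19 in M24 and M50 and by 0.40 and 0.35 in M48 and M60. Angpt2, the angiopoietin released by activated endothelium, was at 4.19, 4.20, 4.34 and 4.46 in adjacent liver and 4.79, 4.95, 5.94 and 4.58 in tumors. Only the M50 tumor was far above the rest. Angpt2 rose by 0.77 (SE 0.222, limma adjusted p = 0.0392), but all adjacent levels lay below the filter value. The size of its rise is therefore uncertain, and it was tested only because of its tumor levels. Apln, the peptide apelin of tip cells, was at 0.22 (95% interval -0.05 to 0.48) and did not pass. Its receptor gene Aplnr was not tested, with levels of 3.65 to 4.09 in adjacent liver and 4.14 to 4.17 in tumors, all below the filter value. The call of Dll4 was lost without M24 (0.0704) and without M50 (0.0673). That of Angpt2 was lost without M24 (0.0943), without M48 (0.087) and with no replicate block (0.0532), and without M50 its mean fell below the filter. Bmp2k stood at 0.06 (95% interval -0.18 to 0.29) and did not pass.

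Set side by side, the median difference of continuous markers lay above that of sinusoidal markers in each mouse. The median of the 11 sinusoidal markers minus that of the 7 continuous markers was -0.35 in log2 units, and by mouse it was -0.56 (M24), -0.27 (M48), -0.93 (M50) and -0.12 (M60). Against the genes shared by most vessels, sinusoidal markers were at -0.12, below 0 in only 2 of 4 mice. Continuous markers minus shared genes came to 0.24, from 0.13 in M60 to 0.69 in M50. With the sprouting, arterial and venous genes added to the continuous list the sinusoidal shortfall was -0.40, with M60 at 0.17. Without the 4 sinusoidal genes that macrophages can express it was -0.76. The medians stand for groups whose members ranged widely, from -0.22 to 2.43 among sinusoidal and from 0.21 to 1.57 among continuous markers. The sizes for Emcn and Cd34 rest on adjacent levels near the filter value. These medians are a description and were not tested.

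**Figure D3:**
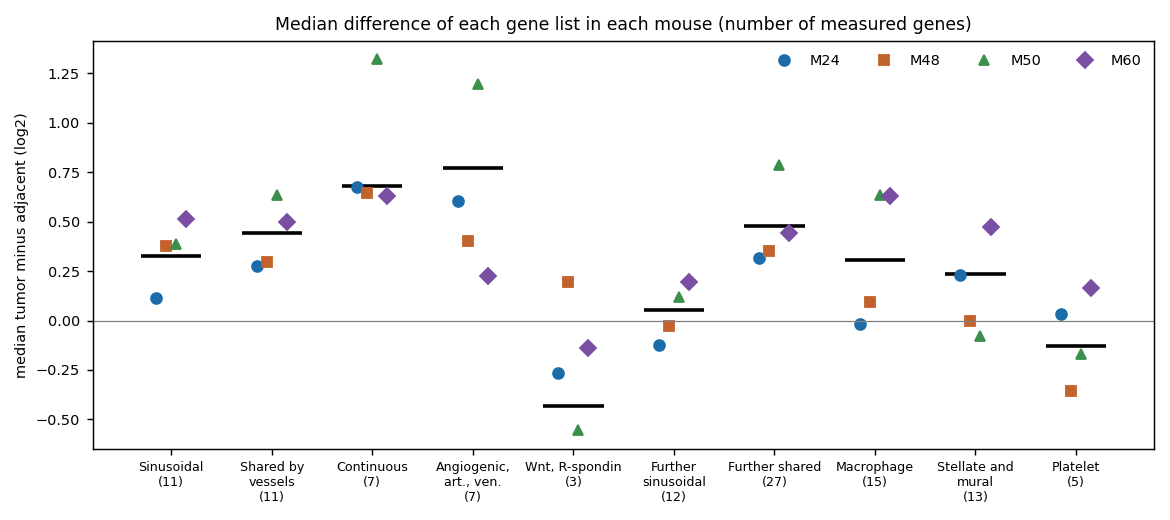
Median tumor minus adjacent difference in log2 units (y axis) of each gene list (x axis, number of measured genes in brackets), with 1 symbol for each mouse and a black bar for the median of the 4-mouse means. Continuous markers lie between 0.63 and 1.32 in the 4 mice and sinusoidal markers between 0.11 and 0.51.

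The mice ranked differently from gene to gene. In the M50 tumor 6 of the 7 continuous markers, 8 of the 11 shared genes and 5 of the 7 sprouting, arterial and venous genes had their highest tumor level. It had the highest level of only 5 of the 11 sinusoidal markers, and M60 had that of another 5. The M50 tumor was the lowest of the tumors for Flt4 (8.45) and for Rspo3 (5.06), and Vwf was highest in M48.

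Further genes of endothelium and of its ligands, pathways and matrix, listed by textbook role, were read from the same fit. In whole tissue other cells may also express these genes, and their cell source was not tested. Their counts stand beside the shares over all tested genes, 16.3% rises and 15.7% falls. Of 27 more genes shared by vessels 16 rose and 1 fell, with a median of 0.48. The rises include Myct1, whose adjacent mean of 4.38 lay below the filter value and which was tested only because of its tumor levels. The laminin chain Lama4 rose by 1.31 (adjusted p = 0.000903), the lectin-like receptor Cd93 by 1.93, the adhesion protein Mcam by 1.49 and the matrix protein Mmrn2, which binds Cd93, by 1.21. The M50 tumor had the highest level of 20 of the 27. Leaving out M50 lowered the count of rises to 9 and leaving out M24 or M60 to 10. S1pr1, a receptor that keeps vessels closed, fell by 0.88 (adjusted p = 0.00523). It was singled out after its value was seen, as the single fall.

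Of 12 further sinusoidal genes 11 were tested, 1 rose, 2 fell and 8 did not pass, with a median of 0.05. That count is near what all tested genes gave, of which 16.3% rose and 15.7% fell. The receptor Gpr182 rose by 0.32, the adhesion protein Adam23 fell by 0.49 and the plexin Plxnc1 by 0.49, and the transcription factor Meis1 was at 0.27 and did not pass. These calls were unstable. Gpr182 was lost without M24 (0.081), M50 (0.101) and M60 (0.14), Adam23 without M24 (0.061), M50 (0.064) and with no replicate block (0.11), and Plxnc1 without M24 (0.16), M48 (0.104) and M50 (0.157). Meis1 passed at 0.025 with no replicate block.

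Of 7 measured genes of venous and activated endothelium 5 were tested and all 5 rose. The leukocyte adhesion protein Vcam1 rose by 1.51 (adjusted p = 0.00429, which became 0.0527 when the replicate block was dropped), the fatty acid binding protein Fabp4 by 1.34, thrombomodulin (Thbd) by 0.76, the receptor Kit by 0.54 and Icam1 by 0.65. For Vcam1, Fabp4 and Icam1 the groups overlapped. Vcam1 was highest in M48 in both tissues, at 9.12 and 10.04, as was Mrc1, and the part of macrophages in its rise was not tested. Cdh13 and Ackr1 were left untested because of low means, and Selp had no probe with a single symbol. Icam1, named outside the rule of the smallest p, was lost without M48 (0.0631), M50 (0.104) and M60 (0.127) and with no replicate block (0.0779). Kit was lost without M50 (0.093) and M60 (0.107). The count of rises was 3 without either of those mice, as it was with no replicate block. Of 9 tested genes of Notch signalling and arterial identity 3 rose, 0 fell and 6 did not pass. Over all tested genes 16.3% rose and 15.7% fell, together 31.9%. The guidance receptor Unc5b rose by 1.31 (adjusted p = 0.000954), the Notch ligand Jag1 by 0.71 and the arterial connexin Gja5 by 1.31, and Notch4 did not pass at 0.24. Adjacent levels of Gja5 were 4.15 to 4.40, all below the filter value, so the size of its rise is uncertain and it was tested only because of its tumor levels.

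Of 6 tested ligands and co-receptors of the VEGF system 1 rose and 3 fell, beside 16.3% and 15.7% of all tested genes. The co-receptor neuropilin Nrp1 was at 9.32 ± 0.0389 (SD) in adjacent liver and 8.33 ± 0.237 in tumors and fell by 0.99 (SE 0.113, adjusted p = 0.00165). Its relative Nrp2, a partner of Flt4, fell by 0.98 and the ligand Vegfb by 0.62, and for all 3 every tumor lay below every adjacent sample. Vegfc, the ligand of Flt4, rose by 0.56 (adjusted p = 0.0157, lost without M50 at 0.052 and without M60 at 0.062). The central ligand Vegfa, named for its role and not by its p, was at -0.07 and did not pass. Pgf and Angpt1 were left untested because of low means.

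In the BMP9 pathway, of which endoglin is a co-receptor, 1 of 8 tested genes rose and 3 fell. Over all tested genes 16.3% rose and 15.7% fell. The BMP9 gene itself, Gdf2, was at -0.79 (95% interval -1.50 to -0.09), and its receptor gene Acvrl1 was at 0.48 (95% interval 0.09 to 0.87). Neither passed. The target Id1 rose by 0.81 (adjusted p = 0.00403) and the related Id3 fell by 1.10 (adjusted p = 0.00272). The receptor Acvr2a fell by 0.54 and the inhibitor Smad7 by 0.35, the latter lost with no replicate block (0.238), without M48 (0.067), without M50 (0.087) and without M60 (0.103). Without M48 the count of rises was 2. Of 11 basement membrane genes 8 rose and 1 fell, with a median of 0.72. Nidogen (Nid1) rose by 3.94, the laminin chain Lama5 by 1.43 and the collagens Col4a2 by 1.25 and Col4a1 by 1.19. Col18a1, singled out as the single fall after its value was seen, fell by 0.32, and no fall was called without M50 or without M60.

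Markers of stellate and mural cells, the neighbours of endothelium, are given beside these results. Of 12 tested markers 5 rose and 1 fell, where 16.3% of all tested genes rose and 15.7% fell. Smooth muscle actin (Acta2) rose by 2.21, collagen Col1a1 by 1.92 and the pericyte channel Kcnj8 by 1.48, while the stellate cell gene Ecm1 fell by 0.88 (lost without M50 at 0.056). Without M50 or without M60 the count of rises was 3. In adjacent liver of M60, 12 of the 13 markers had their lowest adjacent level. Their summed level was 10.68 to 11.72 in adjacent liver and 11.38 to 11.82 in tumors, and the quiescent stellate marker Lrat (-0.37), chosen after its value was seen, did not pass. Acta2 was highest in the M50 tumor (9.77), as were most continuous vessel markers, and the part of these cells in the endothelial results was not tested. The platelet markers Itga2b (-0.30), Ppbp (-0.22) and Pf4 (0.20), the 3 tested, did not pass, and their summed level was 7.14 to 8.25 in adjacent liver and 7.32 to 7.93 in tumors.

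Of 8 hepatocyte markers 1 rose, 2 fell and 5 did not pass, with a median of -0.05. That count is near the shares over all tested genes, 16.3% rises and 15.7% falls. The urea cycle enzyme Cps1 fell by 0.84 (adjusted p = 0.00483), and every tumor lay below every adjacent sample. The apolipoprotein Apoa1 rose by 0.32 and Apoa2 fell by 0.32, both at an adjusted p of 0.0387. Apoa1 was lost without M24 (0.125), M48 (0.128) and M60 (0.131), and Apoa2 without any 1 of the mice (0.0646 to 0.149). Ahsg, a secreted plasma protein, was at 0.19 and did not pass. The summed level of the 8 markers was 16.38 to 16.49 in adjacent liver and 16.28 to 16.49 in tumors. The red cell enzyme Alas2, the only measured gene of its list, was at -0.92 and did not pass, from 0.53 in M48 to -2.25 in M60, and without M48 it passed as a fall (-1.40, adjusted p = 0.0224). The part of these cells in the endothelial results was not tested.

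**Figure D4:**
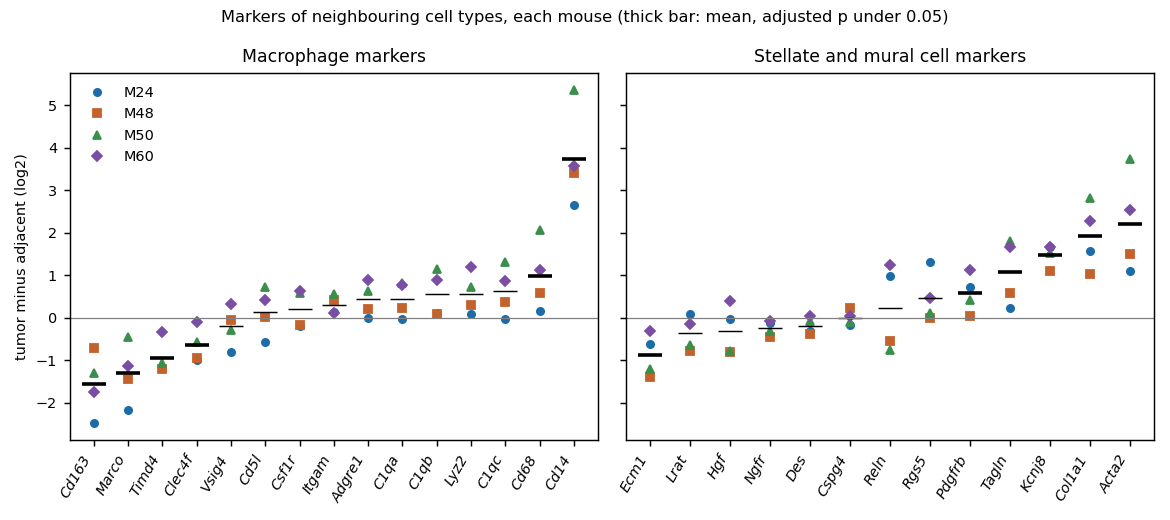
Tumor minus adjacent difference in log2 units (y axis) of each marker (x axis) of macrophages on the left and of stellate and mural cells on the right. Coloured symbols are the 4 mice and bars the mean, thick where the adjusted p was under 0.05. Cd14 at 3.74 and Acta2 at 2.21 are the highest, and Cd163 at -1.56 is the lowest.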

How the data were processed

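Tumor and adjacent liver of 4 mice were each measured on 1 Affymetrix mouse gene array. The authors deposited log2 expression values for 28874 probes. The log base was taken from their range, 1.92 to 14.5. MAS5 is named, per the submitters' processing notes, but its role is not. The background correction, summarization, normalization and scan dates were not given in the sources used here, so no batch was tested. The number of arrays limits the precision.

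Of the 28874 probes 21789 had 1 gene symbol, 1621 had several and 5464 had no entry. The probe with the highest mean stood for a gene, and the 40% of genes with the lowest mean were left out. limma 3.58.1 (R 4.3.3, eBayes with a trend, two-sided) compared the tissues with the mouse as a block, since the series' design pairs both tissues of a mouse. Deviations from the group means correlated at 0.0986 to 0.421 within mice and at -0.378 to 0.189 between mice. Intervals are 95% intervals of that fit. The fit was tested on simulated data.

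The genes and lists were chosen with earlier results of these data known, so lists are described by counts and medians, with no test. All 40 genes are accounted for. Of each other list, up to 4 genes with the smallest p are named. Icam1, Vegfa, S1pr1, Col18a1, Lrat and untested genes are named besides. Cd68, Clec4f, Cd5l, Vsig4, Myct1, Gdf2 and Acvrl1 are also named, for their role or value. Their stability over the settings is not given. The settings tried were no replicate block, no or a stricter filter (60%), quantile normalization, median centring, mean of probes, no trend, and each mouse left out.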

Additional observations from a re-analysis of the deposited data

Results flagged for a closer look

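Each of the 40 genes was checked for 1 sample far from the other 3, in the adjacent levels, the tumor levels and the differences. Of these 120 groups of 4 values 5 stood out, and chance gives about 1 in 20. The Robo4 level in the M50 tumor was 7.29, against 6.27 to 6.28 in the other tumors. The Apln level in the M50 tumor was 5.26, against 4.90 to 4.94. The Ramp2 level in the adjacent liver of M50 was 6.69, against 6.51 to 6.54. The Emcn level in the adjacent liver of M60 was 4.57, against 4.81 to 4.85. The Aplnr level in the M24 tumor was 4.17, while the other 3 tumors were all listed at 4.14. Equal values in at least 2 arrays occurred in 7943 of the 28874 probes.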

How the results depend on the processing

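Of the 21 rises 10 passed in every setting that tested the gene, namely Efnb2, Emcn, Esm1, Flt1, Flt4, Kdr, Lyve1, Pecam1, Stab1 and Tie1. With no replicate block 18 of the 40 genes were called higher and 1 lower, with Mrc1 (adjusted p = 0.286), Oit3, Robo4 and Angpt2 lost and Cdh5 gained, and no other call of these genes changed. With no filter 0 genes, and 0 of the Wnt and R-spondin genes, were lower and 4 shared genes were higher, with Fcgr2b (0.0565), Mrc1 (0.0747), Tek (0.0503), Ramp2 (0.0616), Sox18 (0.0512) and Rspo3 (0.0536) no longer passing. Quantile normalization and median centring each left 4 shared genes higher, with the calls of Tek, Ramp2 and Sox18 lost in both. Centring also ended the calls of Fcgr2b (0.0691) and Mrc1 (0.0745), and that of Mrc1 was lost under quantile normalization (0.0502) and without a trend (0.0561). With the stricter filter 0 genes, and 0 of the Wnt and R-spondin genes, were lower, 0 continuous markers were higher and 1 sprouting or arterial gene was higher, since that fit tested fewer genes. The sinusoidal minus continuous median was -0.76 without Mrc1, Fcgr2b, Stab1 and Lyve1.

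Leaving out 1 mouse at a time gave 11 to 16 genes higher and 0 to 1 lower, with 3 to 5 sinusoidal, 4 to 6 shared, 2 to 4 continuous and 2 to 4 sprouting, arterial or venous genes higher and 0 to 1 Wnt or R-spondin genes lower. Over all tested genes these fits called 1246 to 1754 higher and 1070 to 1722 lower. Signs turned for the genes and lists that follow, none of them called, and the cause was not tested. Bmp2k was at -0.0142 under quantile normalization and ran from -0.00854 to 0.114 with a mouse left out. Over the same fits Clec4g ran from -0.215 to 0.00976, Dnase1l3 from -0.192 to 0.0618, Vegfa from -0.155 to 0.0539, Pdpn from -0.0761 to 0.511 and Ppbp from -0.384 to 0.0129. Median differences ran from -0.0293 to 0.114 for further sinusoidal genes, from -0.0761 to -0.00282 for lymphatic, from -0.00848 to 0.56 for stellate and mural and from -0.216 to 0.0129 for platelet markers. Levels near the filter value, and the 4 arrays a group, limit what these data can show.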
